A study of Drosophila melanogaster and Drosophila simulans and Drosophila erecta with 10 samples.

Results

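The genes described here carry a predicted site for microRNA miR-983-5p from only 1 of the 2 prediction programs that the authors used. They are marked by PITA for miR-983-5p and by TargetScan for neither arm of miR-983. By this rule 180 of 7326 genes in the Drosophila melanogaster table and 140 of 6744 genes in the Drosophila simulans table are members. Testes of adult flies aged 3 to 5 days, kept at 25 °C, were profiled by RNA-seq. In each species, flies of a genotype labelled miR-983 mutant (titled miR-983KO) were set against flies labelled control, with 2 libraries per genotype that the series calls biological replicates. The labels give no allele, strain or stock background for either genotype. Sequencing depth is unknown, because the tables hold log2 expression values with no read totals.

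A microRNA sits in an Argonaute protein and pairs with messenger RNAs, mostly through its seed, the bases near its 5′ end, and the paired transcripts are then translated less or lose their poly(A) tail and decay. Loss of a microRNA therefore tends to raise its direct targets. TargetScan ranks sites by seed pairing and their sequence context, whereas PITA weighs the energy gained by pairing against the energy needed to open the site in the folded message, so the programs can mark different genes. miR-983 is a young Drosophila microRNA expressed in testis.

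The microRNA could not be followed in the D. melanogaster libraries, because their table has 0 entries under the miR-983 gene symbols. In D. simulans such entries could not be looked for, as its identifiers have no symbols here. Of 22 germline markers of the testis, 19 were listed, among them the sperm chromatin genes ProtA, ProtB and Mst77F, with mean log2 values of 2.42 to 10.0. Of 7 markers of somatic testis cells 2 were listed, and of 7 muscle markers 5 were listed. In the germline, somatic and muscle lists 0 passed the test by limma. The germline marker mia came nearest, at 2.86 and 2.72 in mutants, against 2.35 and 2.34 in controls (limma adjusted p = 0.0537). ProtB changed by 0.25 and Mst84Db by -0.39, both with separated genotypes (limma adjusted p = 0.182 and 0.317). Of the somatic markers, MtnA changed by 0.35 and upd1 by -0.23 (limma adjusted p = 0.0661 and 0.642). The accessory gland marker Acp95EF, the 1 listed of 7, had log2 values of 4.42 and 6.34 in mutants, against 4.16 and 4.12 in controls (limma adjusted p = 0.343). Of 8 fat body markers 4 were listed and 2 passed, both higher in mutants, and the list's summed linear level was 907 and 1061 in mutants, against 918 and 968 in controls. Tsf1 was at 5.97 and 6.32 in mutants, against 5.39 and 5.29 in controls, and NLaz at 4.14 and 4.30 in mutants, against 3.62 and 3.57 in controls. The remaining fat body markers, Obp44a and Obp99a, had log2 fold changes of -0.003 and 0.023. The part of these tissues in the members' values was not tested. In testes taken whole, fewer cells of a type and less RNA per cell cannot be told apart. The D. simulans identifiers are not paired with symbols in the sources used here (0 of 6744), so its members are given by identifier and its markers were not examined.

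In D. melanogaster 2 of the 180 members passed the test, both with lower values in mutants, and 0 were higher (limma, adjusted p under 0.05 by Benjamini-Hochberg over all 7326 genes). The members' share was 1.11%, against 2.28% of all genes; by direction it was 0% against 1.05% higher and 1.11% against 1.23% lower. At an unadjusted p under 0.05 there were 17 members (9.44%), 8 with higher and 9 with lower values in mutants, against 12.7% of all genes. The authors' deposited DESeq2 column, from a different test than limma, marks 3 members (1.67%) as past p 0.05, against 121 of all genes (1.65%). Its heading does not say whether that p was adjusted.

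CG31677, a protein-coding gene, was the larger of the called changes. Its log2 values were 4.08 and 4.13 in mutants, against 4.66 and 4.86 in controls, so the genotypes did not overlap. Its log2 fold change came to -0.65 ± 0.08 (SE; limma adjusted p = 0.00751), a 1.57-fold lower level, and the call was kept without any 1 library (adjusted p at most 0.0242). The gene overlaps lncRNA:CR44909 in the annotation. Of the 173 members with a symbol 108 overlap another annotated gene, among them IA-2, Frl and CG4230. The 7 without a symbol were not checked, and the share over all genes was not counted. Whether reads were assigned by strand is not given in the sources used here.

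Hsp23, a small heat-shock chaperone that keeps unfolding proteins soluble, was the other. Its values were 6.32 and 6.31 in mutants, against 6.84 and 6.66 in controls. The mutant libraries nearly coincided and lay below both controls, and the log2 difference was -0.44 ± 0.07 (SE; limma adjusted p = 0.0266). The call was lost without either mutant library (limma adjusted p = 0.0601 and 0.069). The only other small heat-shock gene among the members, CG14207, a homolog of the mammalian chaperone HSPB8, had low values, 1.21 and 1.27 in mutants against 1.41 and 1.42 in controls (limma adjusted p = 0.528).

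Just short of the threshold was IA-2, the fly homolog of a receptor-like tyrosine phosphatase of secretory vesicles in mammals. It had log2 values of 1.86 and 2.05 in mutants, against 2.38 and 2.42 in controls (-0.45 ± 0.10, SE; limma adjusted p = 0.0753), and it is also marked in the authors' deposited table, as are CG31677 and Hsp23. Of the 8 most negative fold changes among members with separated genotypes, 6 did not pass, with limma adjusted p between 0.0753 and 0.376. Frl, a formin that nucleates actin filaments, had 2.81 and 2.62 in mutants, against 3.08 and 2.95 in controls. Muc4B, a mucin gene, had 2.85 and 2.73 in mutants, against 3.11 and 3.06 in controls. In Muc4B the genotypes were farther apart than the replicates of either, and in Frl the gap between the mutant replicates was wider than the distance to the nearer control. MED30, a subunit of the Mediator complex that links transcription factors to RNA polymerase, had 3.09 and 3.20 in mutants, against 3.33 and 3.44 in controls. CG4230 had 4.49 in both mutant libraries, against 4.74 and 4.72 in controls, and ldd had 2.35 and 2.46, against 2.68 and 2.57. These 3 genes had smaller changes, of -0.24 to -0.22.

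**Figure D1:**
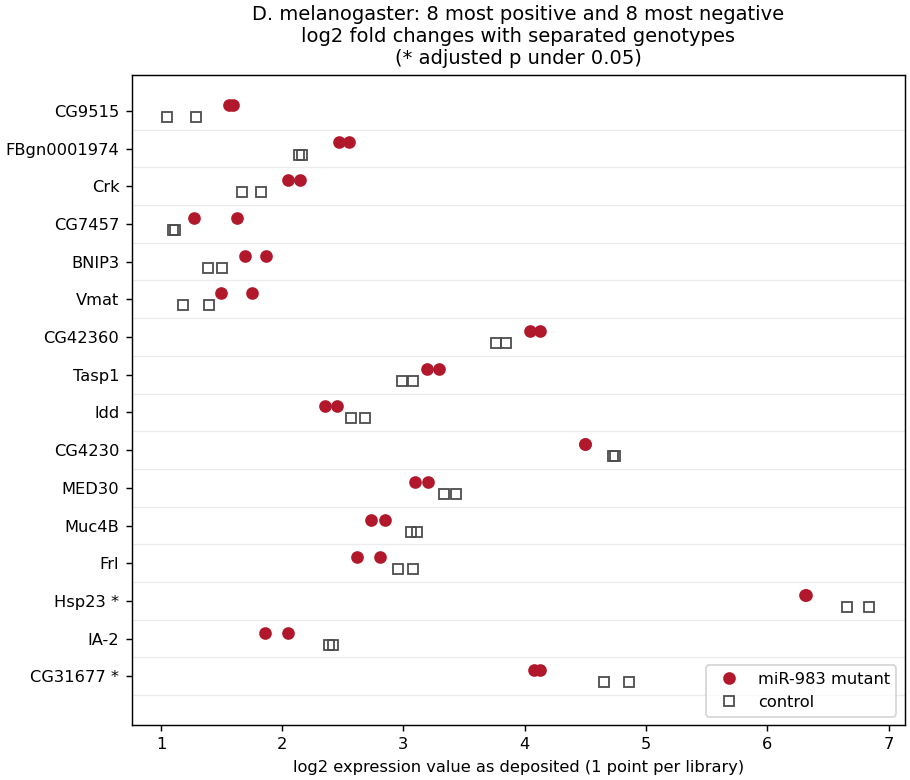
Log2 expression value (x axis, as deposited) of 16 D. melanogaster members (y axis), with 1 point per library, filled circles for the 2 mutant and open squares for the 2 control libraries; an asterisk marks an adjusted p under 0.05. The genotypes do not overlap in any of the 16, which is how they were chosen, and CG31677 (log2 fold change -0.65) and Hsp23 (-0.44) are the 2 that passed.

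On the positive side no member passed (0 genes). The 8 most positive fold changes among members with separated genotypes lay between 0.21 and 0.41 on the log2 scale, with limma adjusted p between 0.107 and 0.346. CG9515 had the largest, with values of 1.60 and 1.56 in mutants, against 1.05 and 1.29 in controls (0.41 ± 0.11, SE; limma adjusted p = 0.136). FBgn0001974, which has no symbol in the tables used here, followed with 2.55 and 2.47 in mutants, against 2.14 and 2.17 in controls. Crk, an adaptor that joins phosphotyrosine signals to the cytoskeleton, had 2.15 and 2.05 in mutants, against 1.83 and 1.67 in controls (0.35 ± 0.10, SE; limma adjusted p = 0.154). Of these 8 genes 5, namely CG9515, Crk, CG7457, BNIP3 and Vmat, had a mean log2 value under 2, in a table whose lowest value is 1.00. BNIP3, a mitophagy receptor on the outer mitochondrial membrane, had 1.69 and 1.87 in mutants, against 1.39 and 1.50 in controls. Vmat, the transporter that fills vesicles with monoamines, had 1.75 and 1.49 in mutants, against 1.39 and 1.18 in controls. CG7457 had 1.27 and 1.63 in mutants, against 1.10 and 1.12 in controls. In CG7457 and Vmat the mutant libraries differed from each other by 0.36 and 0.25, beside differences of 0.34 and 0.33 between genotype means. Tasp1, the protease Taspase that cleaves the chromatin regulator Trithorax, had 3.19 and 3.29 in mutants, against 3.08 and 2.99 in controls. CG42360 had the highest level of these 8 genes, with 4.13 and 4.04 in mutants, against 3.85 and 3.76 in controls (0.28 ± 0.07, SE; limma adjusted p = 0.125).

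Members as a whole were spread around the centre of all genes. Their median log2 fold change was -0.011, and that of all genes was -0.011 as well. The middle 50% of members lay between -0.08 and 0.05, and of all genes between -0.09 and 0.06. A change smaller than 0.2 in size was seen in 161 members (89.4%, against 85.8% of all genes), and no member reached 2-fold (0%, against 0.45%). Genotypes did not overlap in 75 members (41.7%, against 42.3% of all genes). Of these 75, both mutant libraries were above both controls in 31 (17.2%, against 17.9%) and below them in 44 (24.4%, against 24.3%). Each of these shares is near its background. The median SE of a member's fold change was 0.09.

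The 66 genes that both programs mark for miR-983-5p, and the 256 that TargetScan alone marks, had median log2 fold changes of 0.003 and 0.008. Of those 66 genes 0 passed (0%) and 2 had an unadjusted p under 0.05 (3.03%). Of the 256 genes 4 passed (1.56%), 2 in each direction. Over all genes 2.28% passed and 12.7% had an unadjusted p under 0.05. No test was made of a difference between these lists, and they share all 4 libraries.

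**Figure D2:**
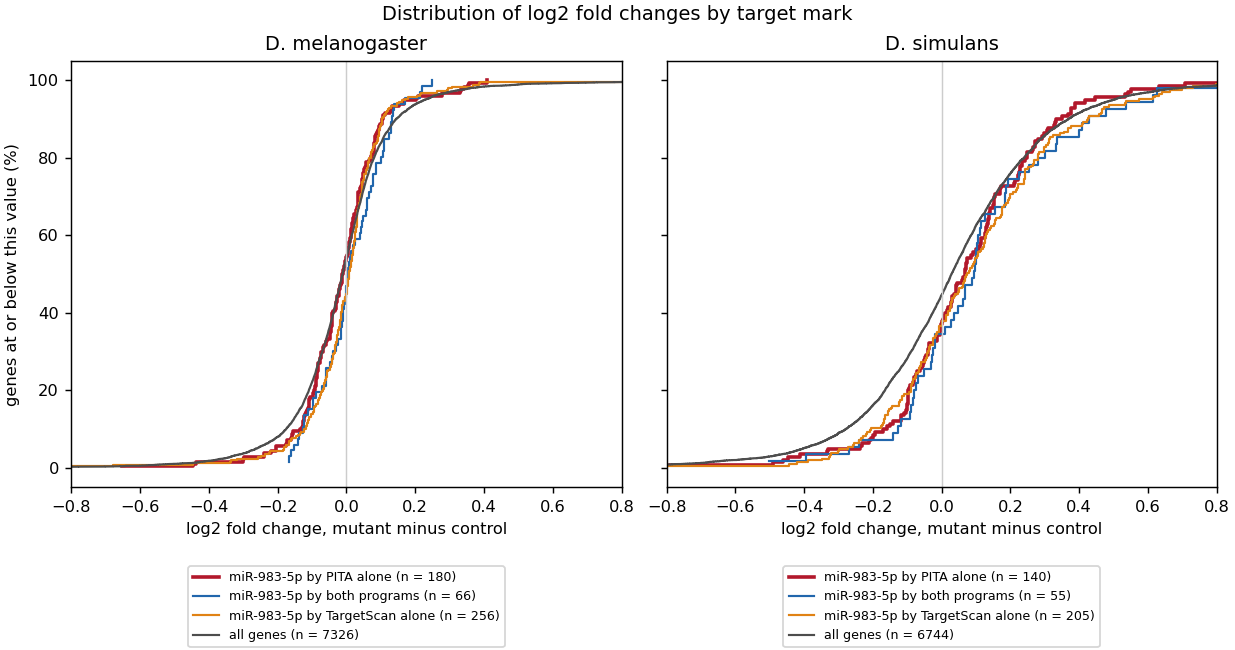
Cumulative share of genes (y axis, %) at or below each log2 fold change, mutant minus control (x axis), in D. melanogaster (left) and D. simulans (right), for miR-983-5p targets by PITA alone, by both programs and by TargetScan alone, and for all genes. In D. melanogaster the PITA curve lies along that of all genes (median -0.011 in each), and in D. simulans it lies to the right of it below 0 (median 0.07 against 0.03).

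By role, 96 of the 173 D. melanogaster members with a symbol were placed in 9 groups from textbook knowledge, after the values had been seen; all 173 are annotated as protein coding. Genes of meiosis, the spindle and cell division in general were 12, with 0 called and a median log2 fold change of -0.05. Twine (twe), the Cdc25 phosphatase that drives entry into male meiosis, had 4.64 and 4.49 in mutants, against 4.55 and 4.56 in controls. Klp3A, a kinesin needed for cytokinesis in spermatocytes, had 4.85 and 4.80 in mutants, against 4.95 and 4.79 in controls. Centrosomin (cnn), a scaffold of the centrosome, had 4.40 and 4.30 in mutants, against 4.36 and 4.24 in controls. In each of these 3 genes the genotypes overlapped. In 4 of the 12 both mutant libraries lay below both controls: Mgtor, B9d2, Nse4 and mats, with changes of -0.16 to -0.05 and limma adjusted p of 0.642 or more. Over all genes 24.3% had both mutant libraries below both controls, so the 4 are not read as a trait of this group.

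RNA-binding proteins, splicing and translation factors made up 16 members, with 0 called and fold changes of -0.09 to 0.13. The group holds proteins of the germ granule, where piRNAs silence transposons. Krimper (krimp) had 2.20 and 2.10 in mutants, against 2.05 and 2.04 in controls, and qin had 2.19 and 2.31 in mutants, against 2.21 and 2.24 in controls. The krimp libraries were separated by a small margin and those of qin overlapped (limma adjusted p = 0.744 and 0.951). Fmr1, the fly homolog of the fragile X protein, had 3.68 and 3.32 in mutants, against 3.49 and 3.35 in controls. The ribosomal protein gene RpS29 had 6.11 and 6.30 in mutants, against 6.02 and 6.12 in controls, and overlaps the antisense gene asRNA:CR31514.

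Replicates differed more than genotypes in some members. The 3 members with the widest gap between 2 replicates were dikar, orb2 and CG14662. orb2, a CPEB-family regulator of translation needed for spermatid differentiation, had 5.30 and 4.85 in mutants, against 5.16 and 4.90 in controls. dikar had 3.20 and 2.77 in mutants, against 3.16 and 2.77 in controls. CG14662 had 2.30 and 1.85 in mutants, against 2.07 and 2.20 in controls. In orb2 and dikar replicate 1 exceeded replicate 2 in either genotype. The same was true, by at least 0.2, in 7 members, which include Not1, Vmat and ctrip, and the reverse in 1 member, Vti1a; over all genes the numbers were 134 and 120. Across the 180 members the replicate 1 minus replicate 2 difference in mutants correlated with that in controls at r = 0.38, and across all genes at r = 0.15. These are correlations across genes of the same 4 libraries, and genes are not independent replicates.

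Mitochondrial and other metabolic enzymes were 9 members, with 0 called and a median of -0.07. Pdhb, the beta subunit of the pyruvate dehydrogenase core enzyme, had 5.40 and 5.50 in mutants, against 5.64 and 5.60 in controls (-0.17 ± 0.06, SE; limma adjusted p = 0.283). Idh3g, a subunit of the citric acid cycle enzyme isocitrate dehydrogenase, had 2.13 and 2.26 in mutants, against 2.36 and 2.34 in controls. These 2 were separated by genotype, whereas SdhA, the flavoprotein of succinate dehydrogenase, overlapped, at 5.22 and 5.04 in mutants, against 5.19 and 5.03 in controls. In 4 of the 9 both mutant libraries lay below both controls, and in 1 above them. Over all genes the shares were 24.3% and 17.9%. With 9 members this is not read as a trait of the group.

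Membrane traffic, lipid signalling and autophagy formed the largest group, with 20 members and 0 called. Counting only the miR-983 genes and genes with listed values, the adaptor subunit gene ruby (rb) comes next to mir-983-2 in gene order. It had 2.11 and 2.00 in mutants, against 2.14 and 1.90 in controls (0.03 ± 0.11, SE; limma adjusted p = 0.949). scat, a subunit of a Golgi tethering complex needed in spermiogenesis, had 1.22 and 1.37 in mutants, against 1.33 and 1.36 in controls. Both overlapped between genotypes. vib, a phosphatidylinositol transfer protein needed for cytokinesis in male meiosis, had 1.21 and 1.36 in mutants, against 1.06 and 1.21 in controls. It was, with the amino acid transporter gene path, one of the 2 members of lowest listed value. path had 1.19 and 1.29 in mutants, against 1.13 and 1.02 in controls.

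The remaining groups also had 0 calls: 8 ubiquitin and proteasome genes, 8 of transcription and chromatin, 13 of signalling, cytoskeleton and cell death, and 8 of nerve and transporter proteins. Rpt3R, the testis paralog of a proteasome ATPase, had 4.93 and 4.91 in mutants, against 4.83 and 4.85 in controls (0.08 ± 0.06, SE; limma adjusted p = 0.659). stet, a rhomboid protease that releases EGF-receptor ligands from germ cells, had 4.14 and 4.03 in mutants, against 3.98 and 4.0 in controls. Both were separated by less than 0.1 at the nearest libraries.

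**Figure D3:**
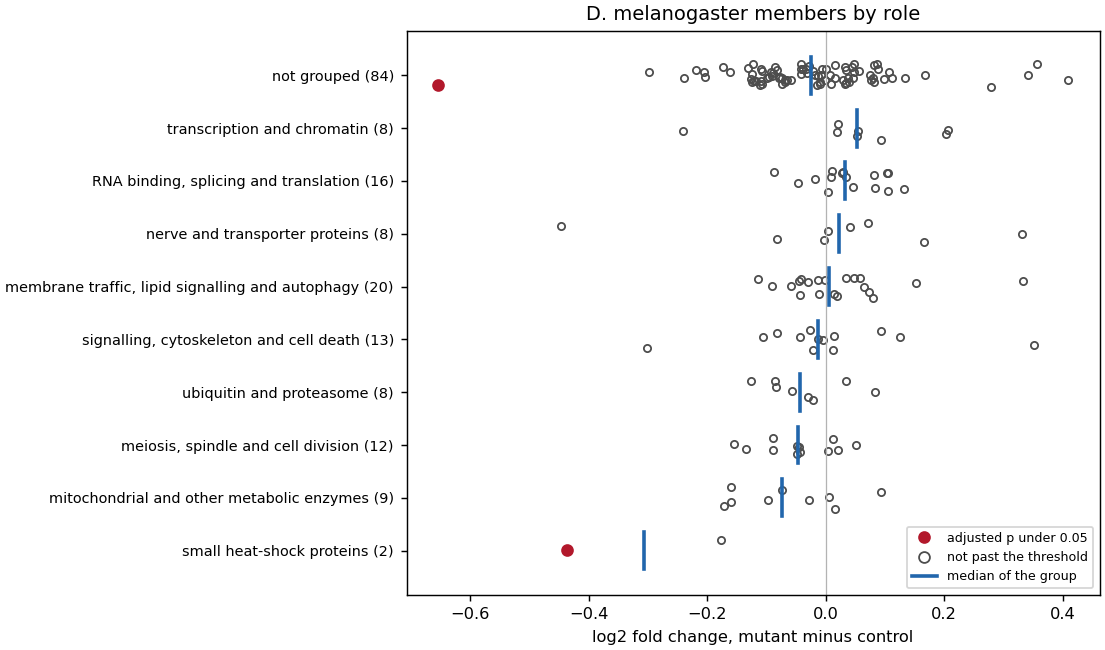
Log2 fold change, mutant minus control (x axis), of the 180 D. melanogaster members by role (y axis, number of members in brackets); each circle is a gene, filled where adjusted p was under 0.05, and the bar is the group's median. The 2 filled circles are Hsp23 and CG31677, and the medians of the other 8 role groups lie between -0.07 and 0.05.

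Members with the highest listed values were CG42393, CG8303, eIF4H2, Hsp23, CG10177 and RpS29, the 6 with a mean log2 value of at least 6. Whether the values are scaled for transcript length is not given, so the order is of listed values and not of transcript numbers. CG42393 had 7.60 and 7.59 in mutants, against 7.48 and 7.54 in controls. CG8303 had 7.26 and 7.36 in mutants, against 7.31 and 7.35 in controls, and its genotypes overlapped. eIF4H2, related to a translation initiation factor, had 6.88 and 6.83 in mutants, against 6.79 and 6.75 in controls, and CG10177 had 6.24 and 6.22 in mutants, against 6.12 and 6.18 in controls. The highest listed member, CG42393, had a mean of 7.55 and CG8303 one of 7.32, farther apart than the replicates of either gene, whereas CG10177 and RpS29, at 6.19 and 6.14, did not differ beyond their spread. Of these 6 only Hsp23 passed the test. Over all members the median of the mean log2 value was 2.67, against 3.23 over all genes, and 47 members were under 2. The members' median was lower than that of all genes in every library, by 0.55 to 0.60. In the D. simulans table the median was 2.77, against 3.39 over all genes.

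The proteins through which a microRNA acts on its targets were examined beside the members in D. melanogaster. Of 23 listed genes for Argonaute, microRNA processing, deadenylation and decapping, 18 were measured and 0 passed by limma, with 1 at an unadjusted p under 0.05 and a median log2 fold change of 0.007. That gene was DCP1, a cofactor of the decapping enzyme, at -0.36 ± 0.09 (SE; limma adjusted p = 0.127). AGO1, the Argonaute that carries microRNAs, had 1.36 and 1.36 in mutants, against 1.39 and 1.38 in controls. Not1, the scaffold of the CCR4-NOT deadenylase, is itself a member, with 4.73 and 4.43 in mutants, against 4.68 and 4.46 in controls.

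In D. simulans 31 of the 140 members passed, with 22 higher and 9 lower in mutants by the same test over all 6744 genes. That is 22.1% of members, against 31.0% of all genes. At an unadjusted p under 0.05 there were 47 members (33.6%), against 42.7% of all genes. The share that rose was near the background, with 15.7% of members against 16.8% of all genes, and the share that fell was lower, with 6.43% against 14.2%; no test was made of this difference. The split moved with the scaling: with each library shifted to the same median, 16 members were higher and 15 lower (11.4% and 10.7%, against 12.6% and 19.2% of all genes), and after quantile normalization 20 were higher and 13 lower (14.3% and 9.29%, against 15.4% and 15.7%). Without control replicate 1 the count was 12 (8 higher, 4 lower), which is 8.57% of members against 18.4% of all genes. Without control replicate 2 it was 16 (12 and 4), or 11.4% against 20.3%. Without mutant replicate 1 it was 22 (12 and 10), or 15.7% against 23.8%, and without mutant replicate 2 it was 42 (33 and 9), or 30% against 36.9%. In all 5 fits 9 members were called. The authors' deposited DESeq2 column marks 23 of the members (16.4%, against 17.9% of all genes) as past p 0.05, with 21 of them among the 31.

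FBgn0181987 had the largest rise, with log2 values of 2.52 and 2.51 in mutants, against 1.54 and 1.60 in controls (0.94 ± 0.11, SE; limma adjusted p = 7.28e-05). FBgn0187536 had 2.64 and 2.54 in mutants, against 1.73 and 2.04 in controls (0.71 ± 0.12, SE; limma adjusted p = 0.00132). In the first the replicates nearly coincided, and in the second the controls differed from each other by 0.30. FBgn0270248 had the largest fall, with 5.03 and 4.97 in mutants, against 5.77 and 5.80 in controls (-0.79 ± 0.06, SE; limma adjusted p = 1.93e-06). FBgn0184531 had 5.65 and 5.61 in mutants, against 6.12 and 6.12 in controls (-0.49 ± 0.05, SE; limma adjusted p = 4.34e-05). All 4 remained called without any 1 library. The other called members changed less than these in the same direction. With these 4 included, the 22 rises were 0.16 to 0.94 in size with a median of 0.37. The 9 falls were -0.19 to -0.79 with a median of -0.41. Genotypes were separated in all 31, which a choice by the test on the same libraries favours.

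**Figure D4:**
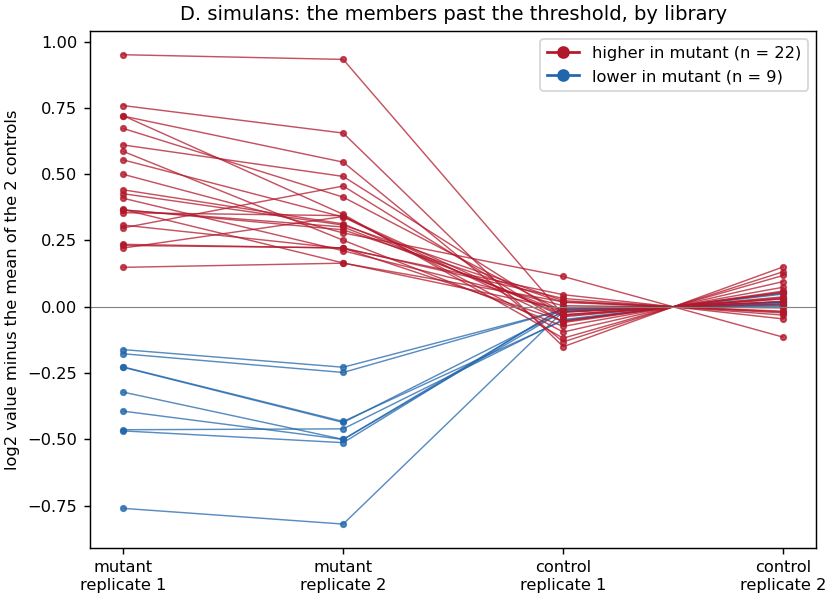
Log2 value minus the mean of the 2 controls (y axis) in each D. simulans library (x axis) for the 31 members past the threshold, with 1 line per gene, red where higher and blue where lower in the mutant. The 22 higher and 9 lower members keep apart from the controls in both mutant libraries. They were chosen by the test on these same libraries, which favours such separation. Mutant replicate 1 lies above mutant replicate 2 in 19 of the 22 and 8 of the 9.

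Mutant replicate 1 read higher than mutant replicate 2 in 104 members (74.3%), against 63.5% of all genes. The members' mean deviation from their own 4-library mean was 0.09 in mutant replicate 1 and -0.01 in mutant replicate 2, against -0.05 and -0.03 in the controls. Over all genes these means were 0.05 and -0.01 in mutants, against -0.02 and -0.01 in controls. Mutant replicate 1 thus lay farther above the controls than mutant replicate 2 did. The median log2 fold change of the members was 0.07, against 0.03 over all genes; without mutant replicate 1 the medians were 0.01 and 0.006. Both mutant libraries were above both controls in 61 members (43.6%, against 38.2% of all genes) and below them in 30 (21.4%, against 30.3%), which makes 91 without overlap (65%, against 68.5%).

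The fold change also went with level in this species, and members are listed at lower values than most genes. Of the 140 members 63 (45%) were in the lowest of 3 equal groups of genes by mean log2 value, 46 in the middle and 31 (22.1%) in the highest. In the lowest group 15.9% of members rose and 4.76% fell, against 14.4% and 6.58% of all genes there. In the middle group the shares were 13% and 6.52% of members, against 19.5% and 12.5% of all genes. In the highest group they were 19.4% and 9.68% of members, which is 6 and 3 genes, against 16.5% and 23.6% of all genes. The median log2 fold change in the 3 groups was 0.12, 0.04 and 0.03 in members, and 0.09, 0.04 and -0.03 in all genes. The part of level in the members' changes was not tested. In D. melanogaster 79 members (43.9%) were in the lowest group and 37 (20.6%) in the highest, and both calls were in the highest. There 5.41% of members fell, which is 2 genes, against 1.31% of all genes, and 0% rose, against 0.696%.

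**Figure D5:**
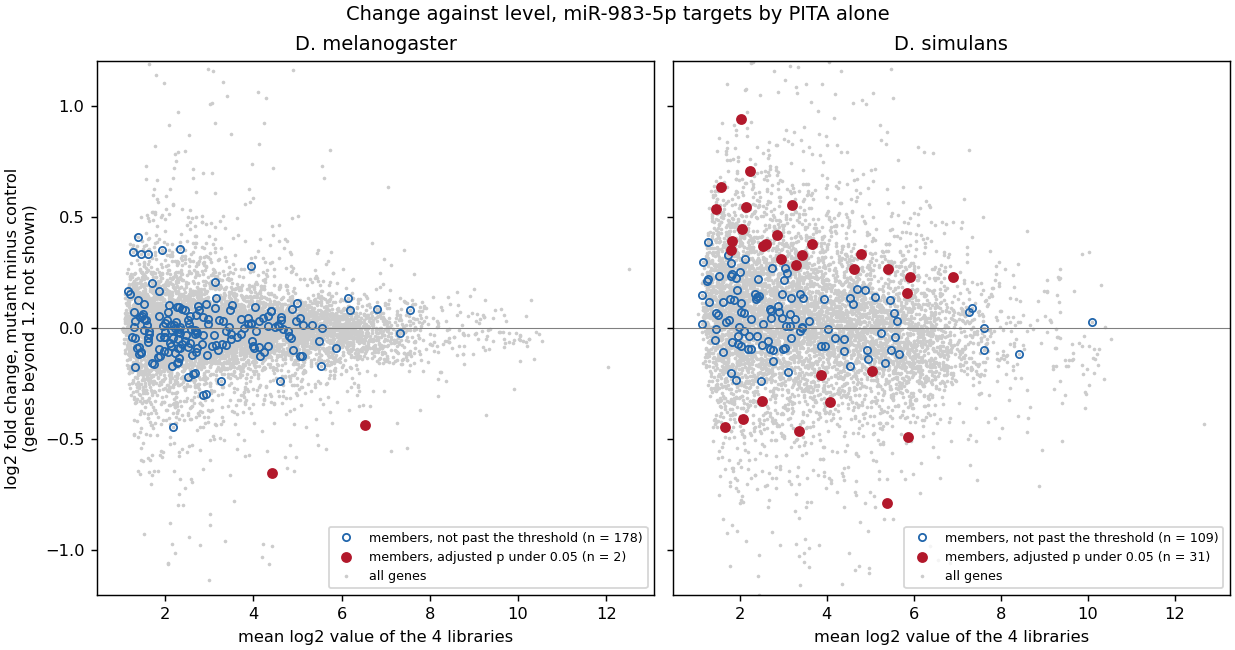
Log2 fold change, mutant minus control (y axis), against the mean log2 value of the 4 libraries (x axis) in D. melanogaster (left) and D. simulans (right); filled circles are members past the threshold, open circles the other members and grey dots all genes, with genes beyond 1.2 in size left out. The 2 called D. melanogaster members lie below 0, and the 31 called D. simulans members are spread over levels on both sides.

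The D. simulans genes marked by both programs numbered 55, of which 10 rose and 2 fell, and those marked by TargetScan alone numbered 205, of which 40 rose and 18 fell. Their median log2 fold changes were 0.09 and 0.07. The genes that rose were 18.2% and 19.5% of these lists, beside 15.7% of the members and 16.8% of all genes. Those that fell were 3.64% and 8.78% of these lists, beside 6.43% of the members and 14.2% of all genes. The lists share the same 4 libraries, so their values are not independent of each other. Members of the 2 species could not be matched gene by gene, and no difference between species was tested.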

How the data were processed

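The authors deposited 1 table of log2 expression values per species, with 1 column per library and Yes or No columns for targets predicted by TargetScan and PITA, per the file headers. The submitters' processing notes name TopHat without a version; the sources used here do not give the genome build, annotation, counter, strand handling, scaling or the quantity under the logarithm. The lowest value is 1.00. If that was a cut-off, a predicted target under it in any library would not be listed. Whether it was a cut-off is not given. The deposited log2 fold change matches the difference of genotype means to within 1.5e-06.

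Every gene of a table was fitted with limma 3.58.1 in R 4.3.3, each species apart, with the empirical Bayes trend on the log2 values as deposited, two-sided, adjusted by Benjamini-Hochberg, threshold 0.05. No filter or pseudocount was used, so all 180 and 140 members were tested. The fit was checked on simulated data. With 2 libraries per genotype an exact permutation test of 1 value cannot go below p = 0.333. Tables, medians and figures were made in Python 3.11.15.

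In D. melanogaster 7195 of 7326 identifiers matched a symbol. Gene order and overlap come from assembly Release 6 plus ISO1 MT. Members, lists and roles were chosen with earlier results of these data known. Named genes are the called members, the 8 most positive and 8 most negative fold changes with separated genotypes, the 6 highest and 2 lowest values and the 3 widest replicate gaps; in D. simulans, the 2 largest changes per direction. twe, Klp3A, cnn, Mgtor, B9d2, Nse4, mats, krimp, qin, Fmr1, Not1, Pdhb, Idh3g, SdhA, rb, scat, Rpt3R, stet, CG14207, ctrip and Vti1a were added after their values were seen, to describe roles and replicates. Fold changes on this scale can understate changes of low genes. The small RNA tables were not used, and 0 numeric columns were left unmapped.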

Additional observations from a re-analysis of the deposited data

How the results depend on the processing

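In D. melanogaster the count of called members was 1 to 3 with 1 library left out (0 to 1 higher, 1 to 3 lower), or 0.556% to 1.67% of members, against 1.61% to 4.15% of all genes. It was 1 (1 lower) without the variance trend, which lost Hsp23 (limma adjusted p = 0.0717), or 0.556% against 1.82%. Among the 72 members with a mean log2 value of at least 3 it was 2, both lower (2.78%, against 2.11% of all genes). With all PITA marks as members it was 4 of 294 (1.36%, against 2.28%), of which 1 was higher. The members' median fold change minus that of all genes was 0.00067; it ranged from -0.022 to 0.021 with 1 library left out and was 0.013 among genes with a mean log2 value of at least 3, so its sign is not determined. Replicate numbers share only a number in the labels. As a hint from the data, differences between replicates correlated between genotypes at r = 0.15 across all D. melanogaster genes and 0.057 in D. simulans. With a replicate block 8 D. melanogaster members were called (2 higher, 6 lower), or 4.44% against 6.87% of all genes (503). In D. simulans 36 were called, or 25.7% against 35.2%. In D. simulans the count was 12 to 42 with 1 library left out (8 to 33 higher, 4 to 10 lower), or 8.57% to 30% of members, against 18.4% to 36.9% of all genes, and the difference of medians 0.0072 to 0.056. It was 20 (13 higher) of the 62 members with a mean of at least 3 (32.3%, against 39% of all genes), and 49 (37 higher) with all PITA marks (23%, against 31%); with median centring 15 members were lower. Of the 31 D. simulans calls 12 remained without control replicate 1. A pseudocount of 1 and quantile normalization left the D. melanogaster calls at 2. For the 26 named D. melanogaster and 4 named D. simulans members 284 values were compared under these alternatives. Of them 270 kept their side or level, 8 newly passed, 3 no longer passed and 3 levels moved. The 270 include mean log2 levels, which have no threshold, and fold changes that passed in neither fit, so they do not measure how stable the calls are. The 3 that no longer passed were all Hsp23, 1 of the 2 D. melanogaster calls. The cause of these shifts was not tested. Depth is unknown, so which differences it hides is unknown too.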
